A study of Mus musculus with 18 samples.

Results

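Neuroendocrine lineage transcription factors and splicing regulators were followed in RNA-seq of the ventral and lateral prostate lobes of TRAMP mice. The members were 9 named genes, Insm1, Foxa2, Sox2, Neurod1, Nkx2-2, Pou3f2, Onecut2, Rest and Srrm4. They were taken by name, with earlier results of these data known. All 9 were found among the 55469 genes of the deposited tables.

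TRAMP mice carry a transgene whose probasin (Pb) promoter expresses the SV40 large T and small t oncoproteins in prostate epithelial cells, and every mouse of every group, controls included, was heterozygous for it. The genotypes of Elac2, the gene for an RNase Z that cuts the 3' ends of precursor tRNAs, were compared in it, on the strain given as C56NL/6N. WT-TRAMP mice had wild-type Elac2. KO-TRAMP mice lost exon 8 through a Cre under the Pb promoter, so that only cells with an active Pb promoter were targeted and other cells of the lobes kept the gene. A537T-TRAMP mice carried the threonine variant in the whole body on both alleles, made with CRISPR-Cas9. Male mice of 10 and 30 weeks were used, with 3 libraries for each genotype and age, 18 in all. The libraries are called here by the number in their column headers. WT-TRAMP was libraries 1 to 3 at 10 weeks and 10 to 12 at 30 weeks, KO-TRAMP was 7 to 9 and 16 to 18, and A537T-TRAMP was 4 to 6 and 13 to 15. The labels number 3 replicates per group, but they tie no replicate to a mouse, so the p-values measure the spread between these libraries.

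The genes lie on 5 chromosomes of GRCm38 (GENCODE vM21). Insm1 (chr2:146221921-146225020, plus strand), Foxa2 (chr2:148042877-148046969, minus), Neurod1 (chr2:79452521-79456751, minus) and Nkx2-2 (chr2:147177546-147194243, minus) are on chromosome 2. In GENCODE, Sox2 is at chr3:34650405-34652461 on the plus strand, inside the long non-coding gene Sox2ot on the same strand. Pou3f2 is at chr4:22482780-22488366 (minus), Rest at chr5:77265491-77286432 (plus), Srrm4 at chr5:116439275-116591817 (minus) and Onecut2 at chr18:64340020-64400987 (plus). All are protein-coding, and the values are counts per gene that the authors estimated with Salmon. Of the words of 31 bases in their transcripts, 6.56% of those of Neurod1 also occurred in another gene (mostly Cerkl, which overlaps it on the same strand), and fewer than 2% of those of each other member.

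The members sit at different levels of one programme. Insm1, a zinc-finger repressor, Foxa2, a forkhead factor that opens chromatin, Sox2, a stem cell and neural progenitor factor, Neurod1, a basic helix-loop-helix factor, and Nkx2-2, a homeodomain factor, act in the making of endocrine and neural cells. Pou3f2 (BRN2) and Onecut2 are neural and liver-pancreas transcription factors that are also known from neuroendocrine prostate cancer. Rest is a repressor that keeps neuronal genes silent in other cells, and Srrm4 is a splicing regulator that turns on neural microexons and also produces a truncated, less active form of REST. In the prostate, neuroendocrine cells are a rare epithelial type, and TRAMP tumours are known to include neuroendocrine ones. In bulk tissue, fewer cells of a type and less RNA per cell cannot be told apart.

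The 250 bases upstream of the RefSeq start site (GRCm38.p6) are shown for Foxa2, Sox2, Pou3f2 and Srrm4. Of the 6 members with a promoter in the reference table, these are the 4 with more than a few reads, and they carry the differences between libraries described here. For Foxa2 the outermost start site is used, and the RefSeq start of Sox2 lies upstream of the GENCODE start given above. They are written 5' to 3' in the direction of transcription, in lower case, and capitals mark a match to 1 of 7 motifs searched on both strands. The windows are chr2:148046970-148047219 (minus strand) for Foxa2, chr3:34649745-34649994 (plus) for Sox2, chr4:22488367-22488616 (minus) for Pou3f2 and chr5:116591818-116592067 (minus) for Srrm4.
Foxa2: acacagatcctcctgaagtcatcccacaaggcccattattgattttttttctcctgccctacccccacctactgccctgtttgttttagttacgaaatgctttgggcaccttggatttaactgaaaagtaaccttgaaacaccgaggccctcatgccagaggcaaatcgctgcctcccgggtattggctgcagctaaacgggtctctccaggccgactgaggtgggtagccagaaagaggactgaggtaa
Sox2: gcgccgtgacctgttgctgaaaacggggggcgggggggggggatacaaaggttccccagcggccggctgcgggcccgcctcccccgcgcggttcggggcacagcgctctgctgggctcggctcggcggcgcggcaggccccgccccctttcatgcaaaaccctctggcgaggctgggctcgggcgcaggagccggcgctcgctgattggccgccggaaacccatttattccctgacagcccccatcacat
Pou3f2: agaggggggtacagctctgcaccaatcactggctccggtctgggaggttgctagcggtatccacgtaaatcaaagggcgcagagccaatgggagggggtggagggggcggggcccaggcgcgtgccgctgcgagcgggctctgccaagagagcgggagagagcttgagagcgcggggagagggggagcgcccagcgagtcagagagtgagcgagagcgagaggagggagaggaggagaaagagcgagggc
Srrm4: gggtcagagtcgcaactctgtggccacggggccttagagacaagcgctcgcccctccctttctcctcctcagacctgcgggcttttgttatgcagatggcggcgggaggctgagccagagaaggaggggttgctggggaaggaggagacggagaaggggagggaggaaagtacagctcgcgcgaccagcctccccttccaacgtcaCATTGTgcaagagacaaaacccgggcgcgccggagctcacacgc
The motifs were the E-box CAGCTG, the octamer ATGCAAAT, the forkhead motif TGTTTAC, the SOX motif CATTGT, the TATA motif TATAAA, and TTCAGCACC and GGACAGCG, the left and right parts of the element that REST binds. The only match in these windows was a SOX motif 44 bases before the Srrm4 start. Among the 32851 promoters of the table, 10.7% held the SOX motif, 13% the E-box, 1.6% the octamer, 3.17% the forkhead motif, 12.4% the TATA motif, 0.301% the left part and 0.992% the right part of the REST element. The GC content of the windows was 50.8% for Foxa2, 72% for Sox2, 66.8% for Pou3f2 and 63.2% for Srrm4, against a median of 52.4% over all promoters.

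The deposited values are normalised read counts, made by the authors by dividing each library's counts by 1 size factor. The whole-number counts behind them could be recovered in all libraries and are called reads here. They are estimates of Salmon and can differ between tables. Insm1 in library 10 was 181 in the KO-TRAMP table and 192 in the A537T-TRAMP table. The libraries held 9380174 to 14830104 recovered reads. A count of 0 allows up to 3 reads, which is 0.202 to 0.320 CPM (counts scaled to the total of each library) in these libraries (counting error only). Normalised Elac2 counts, the targeted gene, were 254, 262 and 301 in KO-TRAMP and 289 to 359 in WT-TRAMP at 10 weeks. At 30 weeks they were 248.98, 251 and 267 in KO-TRAMP and 251, 310 and 320 in WT-TRAMP, so the groups overlapped at both ages. In A537T-TRAMP they were 245 to 306 at 10 weeks (257 to 320 in WT-TRAMP of that comparison) and 258 to 292 at 30 weeks (233 to 295), again with overlap. These counts are over the whole gene, so they do not check the loss of exon 8.

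Libraries 12 and 18 stood apart in 1 respect that touches most results at 30 weeks. When every library was described as a weighted sum of any 2 others, with the members left out of the fit, library 12 (WT-TRAMP) was closest to 0.452 times library 10 plus 0.543 times library 11. Library 18 (KO-TRAMP) was closest to 0.4 times library 16 plus 0.598 times library 17. The residual SD (log2) was 0.130 over 4031 genes and 0.118 over 4395 genes. The lowest value among the fits of the 16 other libraries was 0.187, of 2448 fits in all. The members followed the same sums. In library 18, Insm1 was 109.9 CPM against 111.2 from the sum, Foxa2 63.0 against 62.5, Sox2 51.6 against 55.2, Rest 63.6 against 62.7 and Srrm4 7.68 against 8.94. In library 12, Insm1 was 9.72 against 8.02, Sox2 7.27 against 6.96, Rest 82.9 against 77.9 and Pou3f2 12.1 against 16.6. The 30-week KO-TRAMP results are therefore given also without both libraries. The origin of this relation was not tested.

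**Figure D1:**
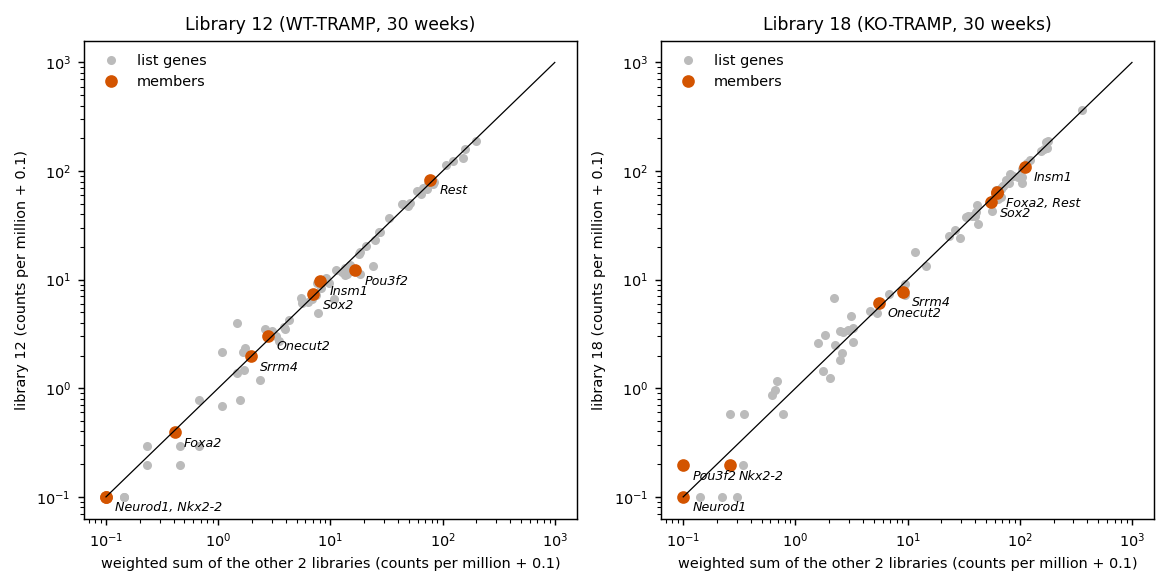
Measured level of each member (orange) and each list gene (grey) in libraries 12 and 18 against the weighted sum of the other 2 libraries of the same group, both in CPM plus 0.1 on log axes, with the line of equality. The members lie along the line, for example Insm1 in library 18 at 109.9 against 111.2 CPM.

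The question asked of each comparison was whether loss or mutation of Elac2 changed the lineage factors at each age. At 10 weeks Rest and Sox2 were measured in all groups, Srrm4 was above the limit of 3 reads in 5 of the 9 libraries, and the other members had few reads. Neurod1 had 0 reads in all 18 libraries of both ages. Nkx2-2 had 1 read in library 2 and none in the other 10-week libraries. Insm1 had 1 read in library 7 and 2 reads in library 4, and Foxa2 had 1 read each in libraries 2 and 6. Pou3f2 had 3 reads in library 8 and 1 in library 6. Onecut2 reached 7 reads in library 8. These 6 lineage factors thus had at most 7 reads in any 10-week library.

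Sox2 was measured in every library at 10 weeks. In the table of the KO-TRAMP comparison, normalised Sox2 counts were 13.1, 12.5 and 26.4 in WT-TRAMP and 27.9, 27.4 and 22.0 in KO-TRAMP. The groups overlapped through library 3, and KO-TRAMP was higher by 0.62 ± 0.39 in log2 (SE of limma, adjusted p = 0.811). In the A537T-TRAMP table they were 12.1, 11.5 and 25.3 in WT-TRAMP and 14.7, 19.9 and 30.96 in A537T-TRAMP, with a log2 fold change of 0.43 ± 0.49 (limma, adjusted p = 0.768).

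Rest, the repressor, was the most abundant member at 10 weeks. Normalised counts were 1117, 1005 and 937 in WT-TRAMP and 904, 974 and 864 in KO-TRAMP, with a log2 fold change of -0.16 ± 0.11 (limma, adjusted p = 0.830). In A537T-TRAMP they were 924, 743 and 741, and in its WT-TRAMP libraries they were 1000, 902 and 835. This was -0.19 ± 0.14 in log2 (limma, adjusted p = 0.661). The groups overlapped in both comparisons. In CPM, Rest was lowest at 10 weeks in libraries 5 (58.1) and 6 (68.3), where seminal vesicle markers summed to 90349 and 11702. In library 9, where these markers summed to 16257, Rest was 78.1. The part of seminal vesicle tissue in the 10-week Rest and Sox2 values was not tested.

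Srrm4 was uneven within groups at 10 weeks. Its normalised counts were 0.87, 2.5 and 36.3 in WT-TRAMP, 1.8, 12.7 and 3.67 in KO-TRAMP and, in the other table, 5.70, 2.21 and 9.17 in A537T-TRAMP. The highest values were those of library 3 (WT-TRAMP) and library 8 (KO-TRAMP). The summed level of 6 autonomic neuron markers (among them Th and Dbh) was 10.7 CPM in library 3 and 29.3 in library 8, and 0.31 to 12.1 in the 7 other 10-week libraries, of which library 6 (12.1) was above library 3. Their part in the Srrm4 values was not tested.

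At 10 weeks only Sox2 and Rest reached the mean of 10 normalised counts needed for the test, and the 7 other members were not tested. Neither was past the threshold of an adjusted p of 0.05 in either line. The test called 2 of 15451 genes in KO-TRAMP (0.0129%) and 1 of 15438 in A537T-TRAMP (0.00648%). An unadjusted p under 0.05 was found for neither, while 6.64% and 7.89% of genes had one. edgeR called no gene in either line, and DESeq2 called 81 and 148. No member separated the groups without overlap, which 12.0% of genes did in KO-TRAMP and 13.4% in A537T-TRAMP.

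The lineage factors at 30 weeks were high in some libraries of a group and near 0 in others. Insm1, Sox2 and Onecut2 were high in libraries 10 and 12 (WT-TRAMP) and in libraries 17 and 18 (KO-TRAMP), and Insm1 and Sox2 were higher in the latter pair. Foxa2 was high only in libraries 17 and 18, and Pou3f2 only in libraries 10 and 12. The remaining library of each of these groups, 11 and 16, and all 3 A537T-TRAMP libraries were near 0 for Insm1, Foxa2 and Pou3f2.

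**Figure D2:**
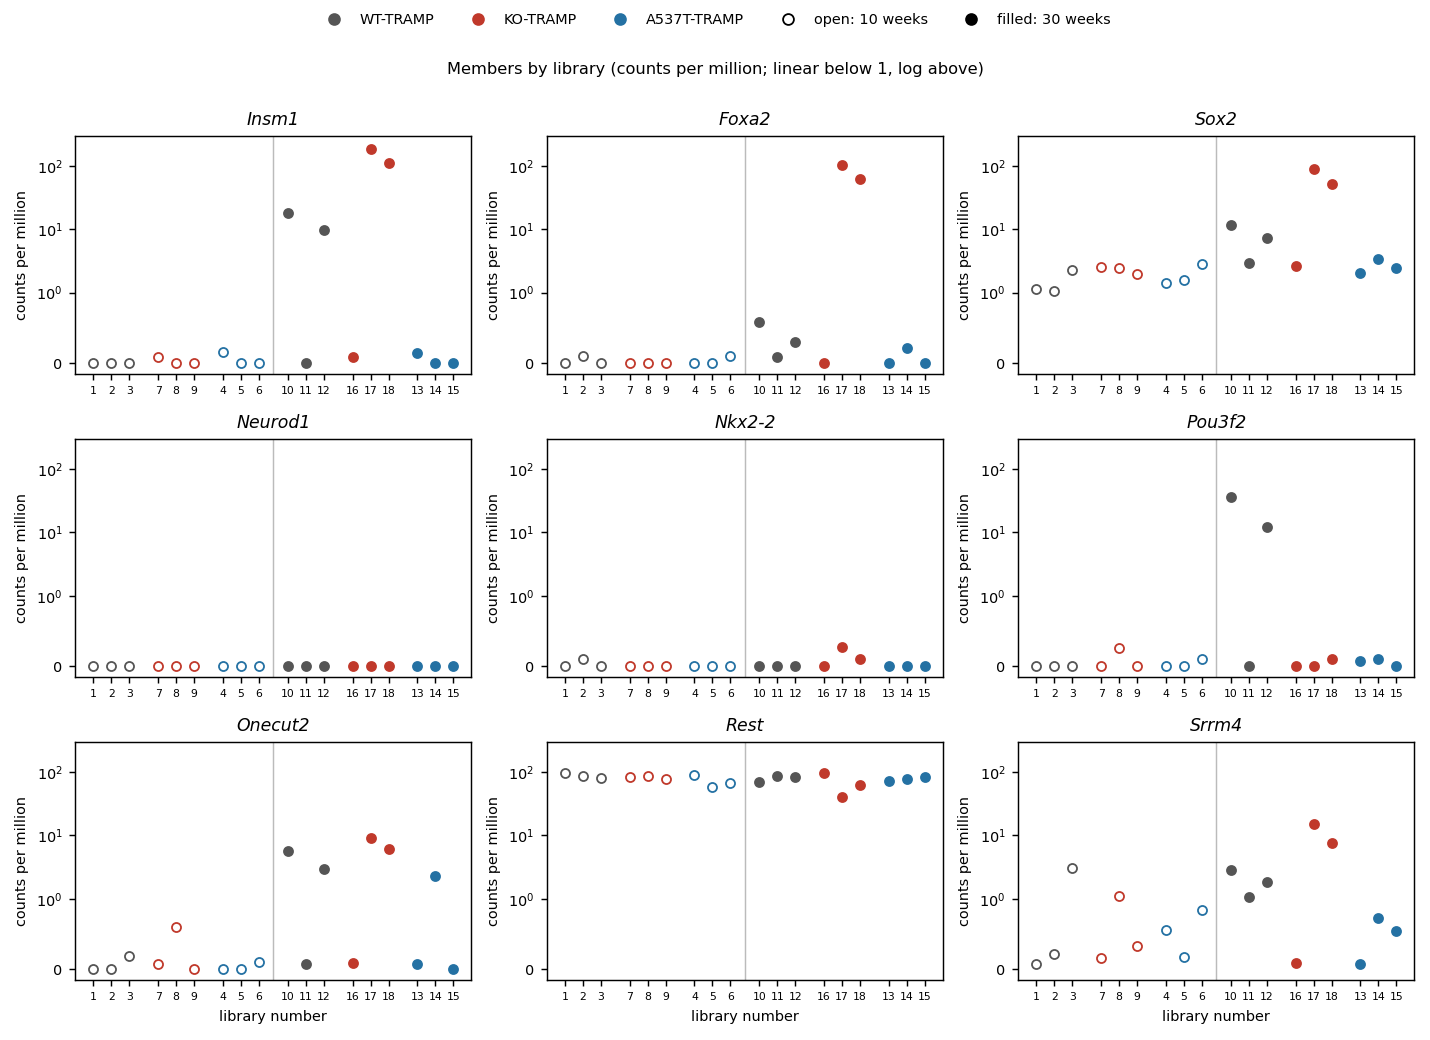
Level of each member in CPM (linear below 1, log above) in the 18 libraries, open symbols for 10 weeks and filled symbols for 30 weeks, coloured by genotype. Insm1 stands high in libraries 10, 12, 17 and 18, Foxa2 in 17 and 18, and Pou3f2 in 10 and 12, while Rest is lowest in library 17.

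Insm1 normalised counts at 30 weeks were 202.5, 0 and 112.8 in WT-TRAMP libraries 10, 11 and 12. In KO-TRAMP they were 1.03, 2010 and 1196 in libraries 16, 17 and 18. The groups overlapped because library 16 lay between WT-TRAMP values, and the fitted difference was 2.57 ± 3.23 (log2(value + 1) scale, limma, adjusted p = 0.689). Without libraries 12 and 18 it was 2.16 ± 4.32 (limma, adjusted p = 0.986).

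Foxa2 had normalised counts of 6.71, 0.96 and 3.42 in WT-TRAMP and 0, 1130 and 685 in KO-TRAMP. Libraries 17 and 18 were above all WT-TRAMP libraries and library 16 was below them. In log2, Foxa2 differed by 4.5 ± 2.69 (limma, adjusted p = 0.448), and 3.11 ± 3.63 without libraries 12 and 18 (adjusted p = 0.986).

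Sox2 followed with 135.4, 34.5 and 84.3 normalised counts in WT-TRAMP and 30.9, 979 and 562 in KO-TRAMP. Library 16 was again the lowest of the 6. In log2, Sox2 differed by 1.8 ± 1.32 (limma, adjusted p = 0.515) and 1.34 ± 1.84 without libraries 12 and 18 (adjusted p = 0.986). Sox2ot, which contains Sox2 on the same strand, was 27.5 and 19.0 CPM in libraries 10 and 12 and 31.1 and 22.2 in libraries 17 and 18, and at most 1.89 in the others, and how reads were shared between both genes was not tested.

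Pou3f2 differed in the opposite direction, with 419.6, 0 and 140.2 normalised counts in WT-TRAMP and 0, 0 and 1.04 in KO-TRAMP. Libraries 17 and 18, the highest for Insm1 and Foxa2, had 0 and 1 read of Pou3f2. The log2 fold change was -4.94 ± 2.24 (limma, adjusted p = 0.386), and -4.36 ± 3.36 without libraries 12 and 18 (adjusted p = 0.986). Its size depends on the pseudocount, since the KO-TRAMP values were at or near 0.

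Onecut2 was high in all 4 libraries, with 66.0, 0.96 and 34.2 normalised counts in WT-TRAMP and 1.03, 97.7 and 65.8 in KO-TRAMP. Its log2 fold change was 0.51 ± 1.93 (limma, adjusted p = 0.900), and 0.30 ± 2.71 without libraries 12 and 18 (adjusted p = 0.992). Nkx2-2 had 4 reads in library 17, 1 in library 18 and none in the other 30-week libraries, and was not tested.

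Rest was lowest in the library with the highest Insm1, Foxa2 and Sox2. Its normalised counts were 799, 1000 and 962 in WT-TRAMP and 1112, 438 and 692 in KO-TRAMP libraries 16, 17 and 18, so library 17 was the lowest and library 16 the highest of the 6. Its log2 fold change was -0.40 ± 0.33 (limma, adjusted p = 0.561), and -0.36 ± 0.51 without libraries 12 and 18 (adjusted p = 0.986). In CPM, Rest was 40.5 in library 17 and 63.6 in library 18, against 58.1 to 97.6 in the other 16 libraries.

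Srrm4 was uneven among the KO-TRAMP libraries, as the lineage factors were, with 1.03, 161.1 and 83.5 normalised counts in libraries 16, 17 and 18, against 32.5, 12.5 and 21.7 in WT-TRAMP. Library 16 was below all WT-TRAMP libraries and libraries 17 and 18 above them. In log2 the difference was 0.48 ± 1.64 (limma, adjusted p = 0.888), and it turned to -0.23 ± 2.29 without libraries 12 and 18 (adjusted p = 0.993).

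For KO-TRAMP at 30 weeks, 7 of the 9 members were tested and none was past the threshold, where 36 of 16900 genes (0.213%) were. None had an unadjusted p under 0.05, which 2289 genes (13.5%) had. edgeR called 15 genes and no member, and DESeq2 called 805 genes with Foxa2 among them. None separated the groups without overlap, as 20.2% of genes did. Without libraries 12 and 18 limma called no gene. Without library 16, Foxa2, Sox2 and Srrm4 were past the threshold (limma, adjusted p = 0.00702, 0.0249 and 0.0334), with 3064 genes called in all. Leaving out 1 library moved the log2 fold change of Insm1 between 0.16 (without library 11) and 5.77 (without library 16), of Foxa2 between 2.69 and 7.76, of Sox2 between 0.85 and 3.32, of Pou3f2 between -7.59 and -3.23 and of Rest between -0.73 and -0.062.

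**Figure D3:**
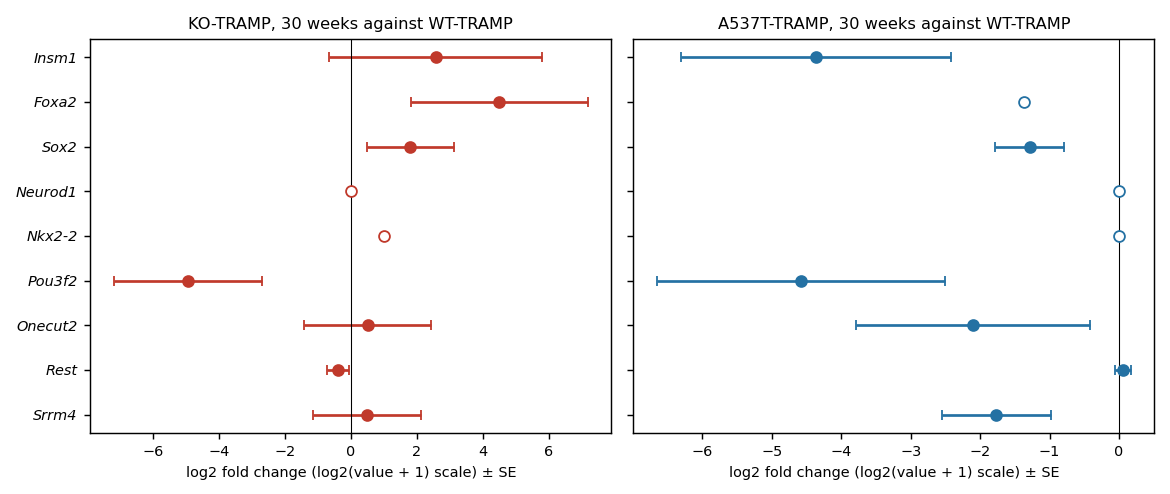
Log2 fold change of each member at 30 weeks, on the log2(value + 1) scale with its SE (bars), for KO-TRAMP (left) and A537T-TRAMP (right) against WT-TRAMP. Filled points were tested and open points were not, and no member had an adjusted p under 0.05.

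In A537T-TRAMP at 30 weeks Insm1 and Pou3f2, high in WT-TRAMP libraries 10 and 12, were near 0. Insm1 normalised counts were 1.64, 0 and 0, against 202.3, 0 and 112.0 in WT-TRAMP of that table. In log2 this was -4.36 ± 1.95 (limma, adjusted p = 0.703), and the groups overlapped through WT-TRAMP library 11. Pou3f2 was 0.82, 1.19 and 0 against 403.6, 0 and 133.3, a log2 fold change of -4.58 ± 2.07 (limma, adjusted p = 0.703).

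Sox2 was 23.8, 39.4 and 26.9 in A537T-TRAMP against 134.9, 34.1 and 84.3 in WT-TRAMP, and the log2 fold change was -1.29 ± 0.50. Its unadjusted p was 0.0349 and its adjusted p 0.684 (limma), and the groups overlapped through WT-TRAMP library 11 and A537T-TRAMP library 14. Onecut2 was 0.82, 26.2 and 0 against 61.1, 0.90 and 32.0, and library 14, which held 26.2, had no read of Insm1. The Onecut2 log2 fold change was -2.10 ± 1.68 (limma, adjusted p = 0.808).

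Srrm4 was the only member whose A537T-TRAMP and WT-TRAMP libraries did not overlap, at 0.82, 8.35 and 5.98 against 24.2, 9.86 and 16. Its log2 fold change was -1.77 ± 0.78 (limma, adjusted p = 0.702). Of the 16261 genes tested, 6.03% were lower without overlap (13.4% in either direction). Rest was 846, 905 and 921 against 750, 932 and 896, with a log2 fold change of 0.06 ± 0.11 (limma, adjusted p = 0.935). Of the 9 members 6 were tested and none was past the threshold, as was no gene of the table (0%), while 1173 genes (7.21%) had an unadjusted p under 0.05. Of the members, Sox2 alone had one. When library 12 was left out no member had one (limma, 595 of 16224 genes did) and no gene was called. No member had one without library 10, 13 or 15 either. edgeR called no gene and DESeq2 called 165. Leaving out library 11 put Insm1 and Pou3f2 past it (limma, adjusted p = 0.0249 and 0.0232), with 145 genes called. Leaving out 1 library moved Insm1 between -6.78 and -2.94, Pou3f2 between -7.20 and -2.87, Sox2 between -1.83 and -0.85, Onecut2 between -3.62 and -1.11 and Srrm4 between -2.23 and -1.05.

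The difference of the line effects between 30 and 10 weeks was tested with an interaction term. None of the 7 members tested for KO-TRAMP passed, with Foxa2 at 4.89 ± 2.97 (log2, limma, adjusted p = 0.479) and Pou3f2 at -5.60 ± 2.62 (adjusted p = 0.389), and no gene of 16431 passed (0%). None of the 5 members tested for A537T-TRAMP passed either, with Sox2 at -1.72 ± 0.71 (limma, adjusted p = 0.721), and no gene of 15941 passed (0%). An unadjusted p under 0.05 was seen for 2146 and 1014 genes (13.1% and 6.36%). edgeR called no gene in either, and DESeq2 called 382 and 50. KO-TRAMP and A537T-TRAMP were compared with the same WT-TRAMP libraries, so their values are set side by side here and not tested against each other.

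Per kb of exon, Insm1 was the most abundant member in library 17, at 60.0 CPM per kb, followed by Foxa2 at 44.1 and Sox2 at 44.0. Rest was at 5.61 in library 17 and between 8.05 and 13.5 in the 16 libraries other than 17 and 18. Onecut2 (0.557) and Srrm4 (1.72) were lower per kb in library 17 than Insm1, Foxa2 and Sox2. In library 10, Pou3f2 (6.58), Sox2 (5.77) and Insm1 (5.73) were closest to each other, and Foxa2 was at 0.248. This order is that of single libraries. Within WT-TRAMP and KO-TRAMP of 30 weeks the levels ran from near 0 to these values, so the order of neighbours does not exceed the spread within a group.

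Related factors also differed between libraries 10 and 17. Among 15 paralogues of the members, Sox1 was 45.5 CPM in library 10 and 144.1 in library 17. Onecut1, a paralogue of Onecut2, was 29.4 in library 10 and 0.88 in library 17. Neurod4 was at 5 and 4.05, while Neurod2 and Neurod6 had no read in any library. Pou3f3, a paralogue of Pou3f2, was 24.4 in library 10 and 0 in library 17, but it also reached 66.5 in library 5, 27.6 in library 13 and 17.4 in library 15, where Pou3f2 was at 0 or 1 read. Libraries 5, 13, 10 and 15 were also the highest, in this order, in summed seminal vesicle markers (90349, 54447, 43493 and 26470 CPM). The part of seminal vesicle tissue in the Pou3f3 values was not tested. Foxa1, the luminal paralogue of Foxa2, was 163.0 in library 10 and 83.3 in library 17, against 80.1 to 317.4 in the others. At 30 weeks 5 of the 15 paralogues reached the mean of 10 in each comparison and none was past the threshold. Their median log2 fold change was -0.43 in KO-TRAMP and -3.14 in A537T-TRAMP. These medians cover only genes that reached that mean, some only through the group where they were high. Sox1 and Onecut1 were at 0 in A537T-TRAMP libraries 13 to 15 and reached it through WT-TRAMP libraries 10 and 12. The sign of such a median follows in part from the filter, also in the lists below where not all genes were tested. In KO-TRAMP, Sox1 (1.75 ± 3.26, limma, adjusted p = 0.788) and Neurod4 (0.35 ± 2.04, adjusted p = 0.935) had the highest values and Pou3f3 (-3.20 ± 2.24, adjusted p = 0.5001) and Onecut1 (-2.93 ± 2.30, adjusted p = 0.539) the lowest. In A537T-TRAMP these were Pou3f3 (0.27) and Foxa1 (-0.20) against Sox1 (-5.59) and Onecut1 (-5.06), with adjusted p of 0.684 or more (limma).

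Other neuroendocrine transcription factors were a list of 16. In library 17 Hes6, a Hes-family factor that inhibits Hes1, was 262.8 CPM, Prox1 193.5, Myt1 110.9 and St18 96.5. In library 10 Hes6 was 16.4, while Prox1 was 54.5, St18 52.7 and Myt1 28.0. Myt1l was 16.3 in library 10 and 0.34 in library 17. Of the 11 list genes tested at 30 weeks, none was past the threshold in either line. The median log2 fold change was 0.80 in KO-TRAMP, with Hes6 at 2.47 ± 1.03 (limma, adjusted p = 0.370) and Myt1l at -3.91 ± 2.06 (adjusted p = 0.420). Isl1, an islet and neural homeodomain factor, was lower without overlap in KO-TRAMP (-1.38 ± 0.43, adjusted p = 0.332), as 9.48% of genes were. In A537T-TRAMP the median was -1.56, with Rfx6 (0.57) and Mycl (0.03) highest and St18 (-4.54) and Mycn (-3.36) lowest.

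**Figure D4:**
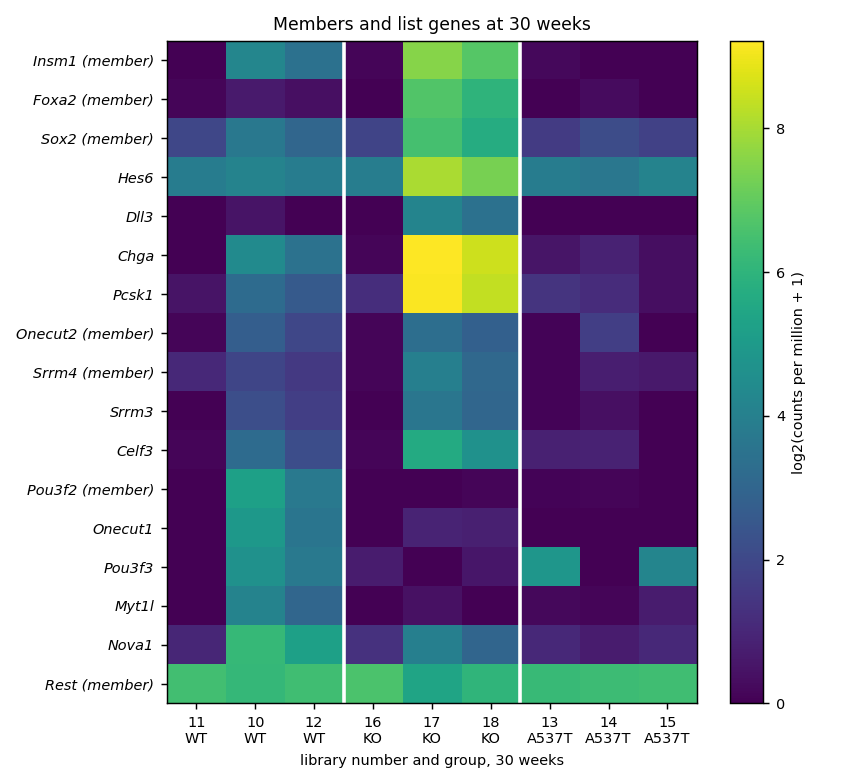
Level of members and list genes, as log2(CPM + 1) in colour, in the 9 libraries of 30 weeks by genotype. Libraries 17 and 18 are highest for Foxa2, Hes6, Dll3, Chga and Pcsk1, libraries 10 and 12 are highest for Pou3f2, Onecut1, Myt1l and Nova1, and Insm1 and Sox2 are above the 5 other libraries in both pairs.

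Rest works with cofactors, of which 10 were listed (among them Rcor1, Sin3a, Hdac1, Hdac2, Kdm1a and Ehmt2), and all 10 were tested in every comparison. None was past the threshold. At 30 weeks their median log2 fold change was 0.13 in KO-TRAMP and -0.05 in A537T-TRAMP. Rcor2, a corepressor, had the highest value in KO-TRAMP (1.12 ± 1.37, limma, adjusted p = 0.681), followed by Hdac2 (0.60), and Phf21a (-0.28) and Ehmt2 (-0.14) the lowest. In A537T-TRAMP Rcor2 was lowest (-1.44 ± 0.61, limma, adjusted p = 0.693), followed by Phf21a (-0.17), and Kdm5c (0.12) and Sin3a (0.10) were highest. The summed level of the cofactors was 515.7 to 864.0 CPM over the 18 libraries, with library 17 the highest.

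The summed level of 17 known REST target genes was highest in library 17, where Rest was lowest. It was 1314 CPM there, of which Chga made up 594.5, and 812.9 in library 18. Stmn2 peaked in library 8, Bdnf (9.22 CPM) and Scn2a (10.98) in library 10 and Syn1 (2.98) in library 18. It was 206.7 in library 10, 96.3 in library 12, 19.0 in library 11 and 20.02 in library 16. In the 3 A537T-TRAMP libraries of 30 weeks it was 27.6 to 45.5, and at 10 weeks 16.2 to 87.9, the highest being library 8. Chga, a granule protein, was 368.0 CPM in library 18 and 20.2 in library 10. Snap25, a synaptic fusion protein, was 126.8, 82.4 and 29.9 in libraries 17, 18 and 10, while Rest itself was 40.5, 63.6 and 70.0. This order did not hold across all libraries. In libraries 5 and 6 of 10 weeks, Rest was 58.1 and 68.3. Snap25 was 1.38 and 5.92 there, and the target sums were 35.1 and 49.6. At 30 weeks, Rest was 82.9 in library 12 and 73.6 in library 13, with target sums of 96.3 and 41.5. In the KO-TRAMP comparison at 30 weeks 16 of the 17 were tested, none was past the threshold, and the median log2 fold change was 1.34. Chga (3.63 ± 3.62, limma, adjusted p = 0.617) followed Stmn2 at the upper end, with Scn2a (-0.71) and Bdnf (0.13) lowest. In A537T-TRAMP 14 were tested, none passed, and the median was -0.92, with Stmn2 and Syt4 (2.16) highest and Bdnf (-3.74) and Chga (-2.26) lowest.

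Stmn2, a neuronal tubulin regulator, was near 0 in all WT-TRAMP libraries of 30 weeks. It was 0.20, 0.08 and 0.10 CPM in WT-TRAMP libraries 10, 11 and 12. It was 4.18, 2.49 and 2.59 in KO-TRAMP and 3.56, 4.38 and 1.54 in A537T-TRAMP, higher without overlap in both comparisons, as 10.8% and 7.36% of genes were. Its log2 fold change was 3.85 ± 0.56 in KO-TRAMP (limma, adjusted p = 0.0832) and 3.87 ± 0.63 in A537T-TRAMP (adjusted p = 0.235), so it did not pass. At 10 weeks it was 4.69 in WT-TRAMP library 3, 5.82 in A537T-TRAMP library 6, 12.3 in KO-TRAMP library 8 and at most 1.56 in the others. Those 3 libraries were also the highest of 10 weeks in summed autonomic neuron markers (10.7, 12.1 and 29.3 CPM). At 30 weeks these markers summed to 0.90 to 12.9 in WT-TRAMP, 0.27 to 7.22 in KO-TRAMP and 2.26 to 12.9 in A537T-TRAMP. Their part in the Stmn2 values was not tested.

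Splicing regulators other than Srrm4 were a list of 19. Srrm3, the paralogue of Srrm4, was 11.3 CPM in library 17, 7.29 in library 18, 3.63 in library 10 and 2.26 in library 12, and at most 0.43 in the others. The neural RNA-binding proteins Elavl4 (118.6) and Elavl2 (117.9) were highest in library 17, and Nova1 was highest in library 10 (71.7, against 14.6 in library 17). The epithelial regulator Esrp1 was 142.7 in library 10, 176.9 in library 17 and 91.7 to 247.4 in the others. All 19 were tested at 30 weeks and none was past the threshold. The median log2 fold change was 0.15 in KO-TRAMP, with Elavl2 (2.55 ± 2.08, limma, adjusted p = 0.551) and Celf3 (1.72) highest and Rbfox3 (-1.796) and Nova1 (-1.42) lowest. In A537T-TRAMP it was -1.20, with Ptbp1 (0.12) and Esrp2 (0.01) highest and Elavl3 (-4.42) and Nova1 (-3.98) lowest. At 10 weeks, of the paralogue, factor, cofactor, target and splicing lists, none of the genes tested was past the threshold in either line.

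The genes most like each member over the 18 libraries are given by Pearson r on log2(CPM + 1), among 13672 genes, with no test. The values share library and depth, and for Insm1, Foxa2 and Pou3f2 they rest on 2 to 4 libraries. Among the genes most like Insm1 were Bhlhe22 (r = 0.999), St8sia5 (0.995), Ina (0.993) and Stxbp5l (0.992). Among those most like Foxa2 were Tal2 and Dll3 (each 0.998), and Pou3f2 was most like Dcx (0.997), Brinp3 (0.993) and Tecta (0.993). Sox2 was most like Pcdha8 (0.982), Vil1 (0.981) and Tcerg1l (0.981), and Onecut2 most like Ap3b2 (0.974), Lhfpl4 (0.966) and Dcc (0.965). Srrm4 was most like Hecw1 (0.951), Smpd3 (0.938) and Necab1 (0.938), Nkx2-2 most like C2cd4b (0.894), Usp27x (0.889) and Adamtsl3 (0.888), and Rest most like Yap1 (0.953), Tfcp2l1 (0.952) and Tbc1d4 (0.944). Among the members themselves the closest pair was Insm1 and Sox2 (0.971), followed by Foxa2 and Sox2 (0.936). Onecut2 was closest to Insm1 (0.918), Srrm4 to Sox2 (0.916) and Pou3f2 to Onecut2 (0.521).

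Markers of the cell types that the dissected lobes could hold also differed between these libraries. The summed level of 12 neuroendocrine cell markers was 1391 CPM in library 17, 852.1 in library 18, 385.1 in library 10 and 192.9 in library 12, and 11.6 to 109.6 in the 14 others. Pcsk1, a prohormone convertase, was 571.7 in library 17 and 8.24 in library 10, and Dll3, a Notch ligand, was 16.7 and 0.39. Ncam1 (139.0 in library 17 and 179.9 in library 10) and Cadps (53.5 and 74.6) were higher in library 10. Calca was low in both (0.81 and 0.88). Basal epithelial markers (Krt5, Krt14, Krt15 and Trp63) summed to 214.9 in library 17 and 149.8 in library 18, against 26.0 to 175.9 in the others. Krt15 (105.5) and Krt5 (79.97) made up most of the sum in library 17, while Krt14 was lower in libraries 17 (0.74) and 18 (1.63) than in every other library. Luminal markers summed to 2290 in library 17 and 2315 in library 10, within the range of 1873 to 3341 of the others. The 10 proliferation genes summed to 2679 and 1840 in libraries 17 and 18, against 549.0 to 1315 in the others. Seminal vesicle markers summed to 43493 in library 10, 18984 in library 12 and 0.82 in library 11 within WT-TRAMP at 30 weeks. In KO-TRAMP they summed to 2464 in library 16, 6.41 in library 17 and 981.3 in library 18, and in A537T-TRAMP to 54447, 3.13 and 26470 in libraries 13, 14 and 15. At 10 weeks they summed to 1.83 to 4.499 in WT-TRAMP, 8.897 to 16257 in KO-TRAMP and 487 to 90349 in A537T-TRAMP. Both lines were thus above WT-TRAMP without overlap in this sum. Of the 7 markers, 7 were higher without overlap in A537T-TRAMP and 4 in KO-TRAMP. Over all genes 13.4% and 12.0% were without overlap in either direction. The 7 markers are of 1 tissue, so they are not separate observations. Smooth muscle markers at 10 weeks summed to 377.1 to 618.5 in WT-TRAMP, 697.8 to 1067 in KO-TRAMP and 934.7 to 2022 in A537T-TRAMP. Autonomic neuron markers summed to 12.9 in library 10 and 7.22 in library 17. Macrophage markers summed to 128.3 to 144.6 in KO-TRAMP of 30 weeks and 51.8 to 77.9 in WT-TRAMP, Schwann cell markers to 3.21 to 20.4 and smooth muscle markers to 377.1 to 3049 over all libraries. The part of these cell types in the members' levels was not tested.

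**Figure D5:**
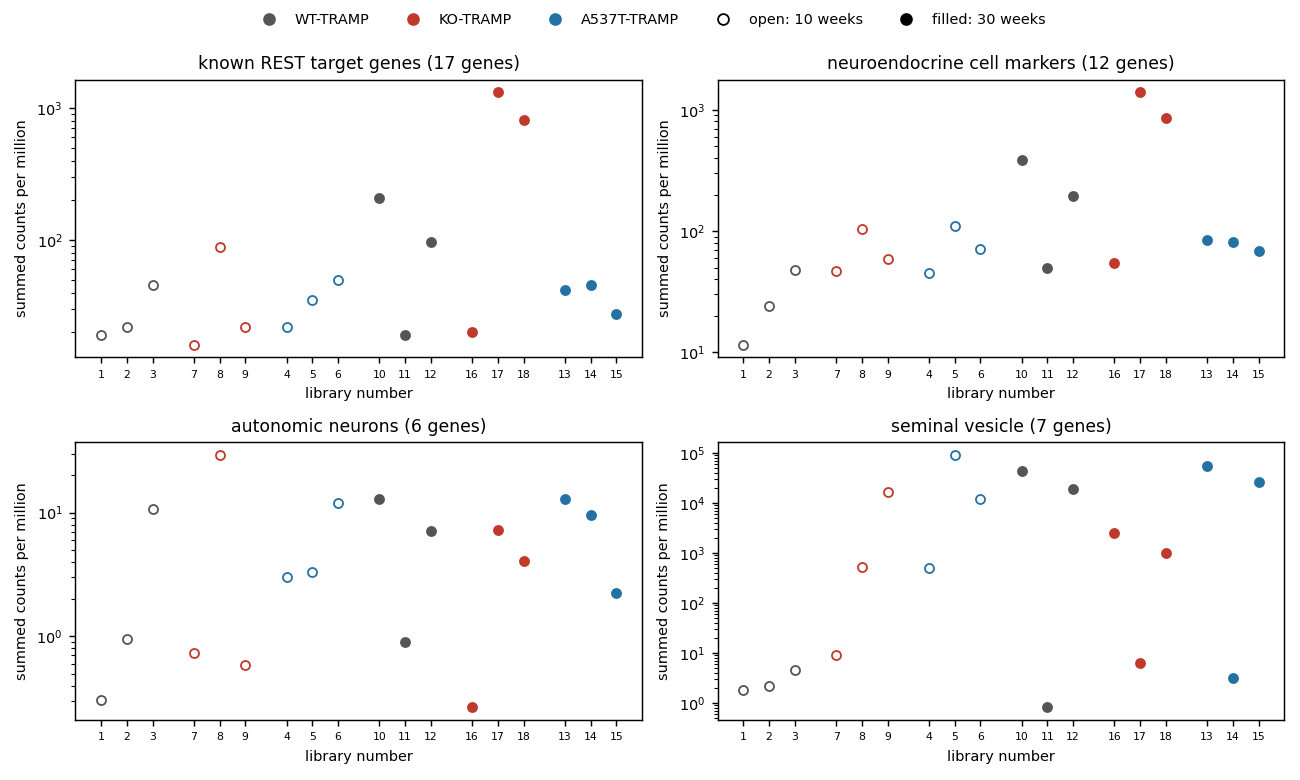
Summed level, in CPM on a log axis, of 17 known REST target genes, 12 neuroendocrine cell markers, 6 autonomic neuron markers and 7 seminal vesicle markers in the 18 libraries, coloured by genotype. Libraries 17 and 18 lead the first and second lists, whereas library 8 leads the autonomic neuron markers and library 5 the seminal vesicle markers.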

How the data were processed

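RNA was measured in the ventral and lateral prostate lobes of TRAMP mice, 3 libraries for each of 3 genotypes and 2 ages. Per the study's methods and the submitters' processing notes, the authors trimmed reads with Trim Galore 0.4.1 and cutadapt 1.18, aligned them with STAR 2.7.3a, quantified genes with Salmon and normalised with DESeq2 1.26 on GRCm38.p6. The 4 deposited tables, each of 1 mutant line and WT-TRAMP at 1 age, hold this signal: counts divided by 1 size factor per library. Their headers carry a library number and no replicate number. Columns present in both tables of an age were taken as WT-TRAMP, the only group both hold, and the others as the mutant line of their table. Whole-number counts, called reads here, were recovered from the steps of the values (within 0.01 of a whole number for 100% of values above 0). For WT-TRAMP, held in 2 tables, 30.9 to 37.6% of genes had the same recovered reads in both.

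Levels set side by side across tables are CPM of the table total, with WT-TRAMP from the KO-TRAMP tables. Within a table, log2(value + 1) was tested with limma 3.58.1 (R 4.3.3, trended eBayes, two-sided, Benjamini-Hochberg over genes with a mean of at least 10, threshold 0.05), so a fold change understates the change of low genes. The interaction used the 12 libraries of both tables of a line. A member under the mean of 10 has a difference and no test. The fits were tested on simulated data. Alternatives were pseudocounts of 0.5 and 5, no filter, equal totals, array weights, edgeR 4.0.16 and DESeq2 1.42.0 on recovered reads, and leaving out each library. Removing libraries 12 and 18 was added after seeing the data. Gene symbols matched 55107 of 55469 IDs.

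All 9 members are named. From each related list, up to 2 genes with the highest and 2 with the lowest fold change were named at 30 weeks, while 10 weeks and the interaction are given as counts. Other list genes, given as levels, were chosen after their values were seen. Some genes that the rule names are not reported here. Cell type lists are given by their summed level. The members and lists were chosen with earlier results of these data known.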

Additional observations from a re-analysis of the deposited data

How the results depend on the processing

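No paired analysis was possible because the column headers carry no replicate numbers. No member was past the threshold at 10 weeks under any alternative that gave a value. At 30 weeks the number of members past it was 0 in KO-TRAMP but 6 with array weights, 1 with DESeq2 (Foxa2, adjusted p = 0.023, with 805 of 16900 genes called) and 0 to 3 when leaving out single libraries (3 without library 16). In A537T-TRAMP it was 0 but 4 with array weights (3388 of 16261 genes called) and 0 to 2 when leaving out single libraries (2 without library 11). For the difference between ages it was 0 but 3 with array weights in each line (5188 of 16431 genes called in KO-TRAMP and 1645 of 15941 in A537T-TRAMP). Leaving out single libraries gave 0 to 2 in KO-TRAMP (2 without library 16, with 1944 genes called) and 0 to 1 in A537T-TRAMP (1 without library 11, with 20 genes called). Array weights gave library 18 a weight of 170.3, against 0.097 to 2.15 for the other 5 libraries of its table, and 10748 of 16900 genes were then called. The estimation of array weights stopped before its convergence tolerance was met in at least 1 fit. edgeR called no member. Without libraries 12 and 18, limma called no member and no gene in KO-TRAMP at 30 weeks, where 343 genes had an unadjusted p under 0.05.

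Signs that changed belong to fold changes that passed no threshold in either fit. Leaving out single libraries moved the KO-TRAMP 30-week value of Onecut2 between -1.03 and 2.28 and that of Srrm4 between -0.73 and 2.43, and the A537T-TRAMP value of Rest between -0.038 and 0.12. It moved the KO-TRAMP difference between ages of Insm1 between -0.15 and 5.46, of Onecut2 between -1.77 and 1.54, of Rest between -0.58 and 0.093 and of Srrm4 between -0.66 and 2.58. With equal totals Rest in A537T-TRAMP at 30 weeks was -0.0026. The Onecut2 difference between ages in KO-TRAMP was 0.15 with a pseudocount of 5 and 0.84 with array weights. Removing libraries 12 and 18 put Srrm4 at -0.23 (30 weeks) and -0.078 (difference between ages). The cause was not tested. Of 778 alternative values of single members, 727 were counted as unchanged and 25 newly passed the threshold. A further 22 were counted as sign changes, and 4 of untested members moved by more than the spread. Untested members that moved by less than the spread were counted as unchanged even where the sign changed. Among them, at 10 weeks, Srrm4 in each line and Onecut2 in KO-TRAMP changed sign when single libraries were left out. The count of 22 therefore leaves out such changes. With WT-TRAMP read from the A537T-TRAMP tables the summed member level in its libraries was 103.0 CPM on average, against 103.9.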
